A study of Mus musculus with 8 samples.

Results

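Foxp3 binding sites that the depositors list as cTreg-specific and whose centre lies inside the body of a protein-coding gene were followed over all 8 CUT&Tag libraries of the series. The rule found 413 such sites in 297 genes, out of 727 cTreg-specific sites and 5521 sites in all (3847 common, 727 cTreg-specific and 947 eTreg-specific). Each site spans 400 bp in mm10 coordinates, and gene bodies were those of RefSeq on GRCm38.p6. The cells were Treg cells, CD4+hCD2+GFP-, sorted fresh out of the spleen and lymph nodes of mice of the C57BL6/J strain. R397W cells carried Foxp3R397W-IRES-hCD2/Foxp3-IRES-GFP, and WT cells carried Foxp3WT-IRES-hCD2/Foxp3-IRES-GFP. Both genotypes thus held a GFP-marked Foxp3 allele in trans, and the sort kept cells that expressed the hCD2-marked one. The 4 groups were R397W Foxp3, WT Foxp3, R397W IgG and WT IgG, with 2 libraries each, where IgG is the control antibody. Ages are not given in the sources used here, nor is it stated whether replicates 1 and 2 of a group are different mice, so p-values measure only the spread between these libraries, which may be technical.

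Foxp3 is the forkhead transcription factor on which regulatory T (Treg) cells depend. Resting or central Treg cells, usually abbreviated cTreg, recirculate through lymphoid organs and share much of their gene program with naive T cells, including the factors Lef1, Satb1 and Bach2. Effector Treg cells (eTreg) lose much of that program and acquire activation and tissue-homing genes. R397W is a missense change in the forkhead domain, the part of Foxp3 that contacts DNA. In CUT&Tag an antibody tethers a transposase to chromatin, and DNA close to the bound antibody is cut and tagged for sequencing. A site inside a gene body can sit in an intron that holds an enhancer, or near a start of transcription.

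Only 10 of the 413 sites touched a window around a RefSeq start (250 bases before to 50 after), and 4 of those touched a start of their own gene, in Foxp1, Satb1, Themis and Spg11. For 88 of the 413 sites the gene had no start in the table used, so a touch with their own start could not be scored. For each of these 4 sites 1 upstream window is shown, which lies at a RefSeq start of the gene that holds the site. The Themis site also touched a second Themis start, at 28668395, whose overlapping window is not shown. The Foxp1 start, at 99266515, is an inner one and not the 5′ end of the gene body. That body runs from 98925342 to 99522746 on the minus strand. They come from RefSeq on GRCm38.p6 and are written 5′ to 3′ on the strand of the gene. Capitals mark the forkhead core TGTTT and its reverse complement AAACA. The windows are chr6:99266516-99266765 (minus strand), chr17:51833291-51833540 (minus strand), chr10:28668110-28668359 (plus strand) and chr2:122118387-122118636 (minus strand).
Foxp1: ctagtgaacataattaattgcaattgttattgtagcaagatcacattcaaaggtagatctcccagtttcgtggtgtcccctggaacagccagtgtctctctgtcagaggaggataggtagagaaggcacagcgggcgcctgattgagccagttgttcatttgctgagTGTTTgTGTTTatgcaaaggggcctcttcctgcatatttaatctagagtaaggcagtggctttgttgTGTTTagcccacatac
Satb1: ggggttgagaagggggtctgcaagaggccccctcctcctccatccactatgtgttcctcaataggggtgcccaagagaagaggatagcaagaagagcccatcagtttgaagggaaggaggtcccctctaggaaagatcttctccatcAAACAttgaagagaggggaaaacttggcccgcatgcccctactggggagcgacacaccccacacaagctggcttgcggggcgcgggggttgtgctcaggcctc
Themis: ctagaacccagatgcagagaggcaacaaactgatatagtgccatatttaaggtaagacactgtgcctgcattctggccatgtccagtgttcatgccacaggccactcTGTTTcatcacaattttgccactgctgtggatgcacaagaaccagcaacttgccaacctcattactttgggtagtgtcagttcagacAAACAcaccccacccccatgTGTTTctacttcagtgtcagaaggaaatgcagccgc
Spg11: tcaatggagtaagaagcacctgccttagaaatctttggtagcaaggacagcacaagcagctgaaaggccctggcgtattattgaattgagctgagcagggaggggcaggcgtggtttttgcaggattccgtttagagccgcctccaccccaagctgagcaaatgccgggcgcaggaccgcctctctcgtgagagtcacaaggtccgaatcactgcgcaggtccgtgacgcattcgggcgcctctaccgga

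The 400 bp sites covered 226 bases of the Foxp1 window, 134 of the Satb1 window, 200 of the Themis window and 215 of the Spg11 window. The Foxp1 window held the forkhead core 3 times, 83, 77 and 16 bases before the start, with the first pair 1 base apart. Themis also held it 3 times, Satb1 once, and Spg11 had no match. The window of the second Themis start, of which the site covered 235 bases, held the core 3 times too. These letters are common, since TGTTT or AAACA occurred in 46.4% of 32851 upstream windows of the same length. The longer forkhead form TGTTTAC, present in 3.17% of windows on either strand, was not among the letters of these 4. The Foxp1 window also held the TCF/LEF letters CTTTGAA on the opposite strand, which 4.46% of windows hold, and the ETS letters AGGAAG on the opposite strand, which 29.5% hold. The T3G repeat (searched as 3 units of TTTG in a row, in 0.591% of windows), the RUNX letters TGTGGTT (4.40%), the AP-1 letters TGANTCA (6.75%) and the ETS letters CCGGAA (12.03%) were likewise searched on both strands and not found in these 4 windows. A match is a string of letters, and no binding was read from it.

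Most sites lay deep inside their genes. Of the 325 sites whose gene had a start in the table used, 10 (3.08%) lay within 1 kb of a start, 67 (20.6%) within 10 kb and 123 (37.8%) beyond 50 kb, with a median distance of 33180 bp. The eTreg-specific sites inside genes were placed much the same way, with 13 of 408 (3.19%) within 1 kb and a median of 30028 bp. Common sites inside genes were closer, with 324 of 2003 (16.2%) within 1 kb and a median of 19982 bp. These are descriptions of the depositors' lists, and the differences between the classes were not tested. The host genes were long, with a median of 108150 bp over the 297 genes and a range of 9150 to 1611970 bp. Genes with eTreg-specific sites had a median of 93603 bp, and those with common sites were shorter, at 56504.5 bp. Among sites with a start, the median position along the gene was 48.6% for cTreg-specific, 47.2% for eTreg-specific and 42.0% for common sites. The 413 sites were spread over 20 chromosomes, with chromosome 1 holding 46 and chromosome X holding 5, and 407 lay wholly inside the gene body. For 3 sites the centre lay in 2 gene bodies, and the shorter gene was taken. Exons and introns were not analysed here.

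**Figure D1:**
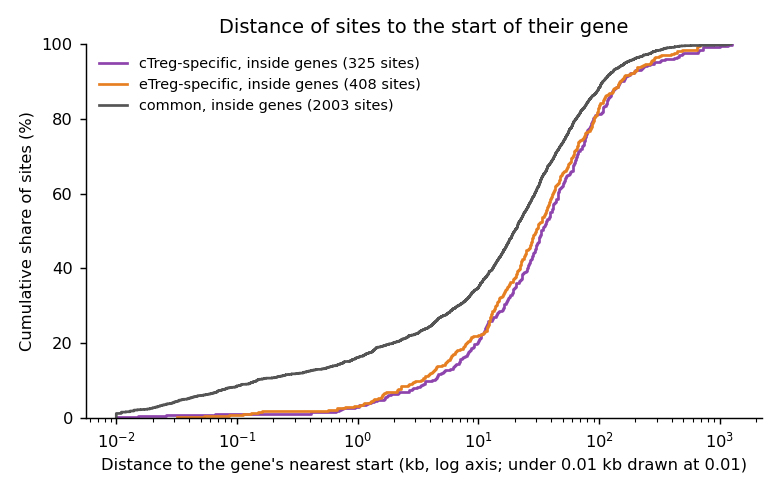
Cumulative share of sites (y axis, percent) by distance to the nearest start of the gene that holds them (x axis, kb, log scale) for cTreg-specific, eTreg-specific and common sites inside genes. The cTreg-specific curve (325 sites) runs beside the eTreg-specific one (408 sites), with medians of 33180 and 30028 bp, and the common curve (2003 sites) lies to the left with a median of 19982 bp.

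The gene lists differed in how many of their genes held a site. Of 30 naive and resting T cell genes, 12 (40%) held 35 sites, among them Foxp1 (12), Satb1 (4), Lef1, Bach2, Bcl2 and Ikzf1 (2 each), and Il6st, Ets1, Nsg2, Rapgef4 and St8sia1 (1 each). Of the same 30 genes, 16 held 40 common sites and 5 held 7 eTreg-specific sites. None of 28 effector Treg genes held one, although 5 of these held common sites and 4 held eTreg-specific sites. Such a site was held by 1.36% of all 21896 protein-coding genes annotated, and the lists hold genes active in T cells, many of them long, so the shares describe the lists and were not tested. Of 15 core Treg genes only Il2ra, the alpha chain of the interleukin-2 receptor, and Nrp1, neuropilin-1, held a site. T cell receptor signalling had 6 of 34 genes (Fyn, Prkcq, Prkch, Themis, Cd6 and Cblb) with 7 sites. Cytokine signalling had 4 of 27 (Il6st, Tgfbr2, Smad7 and Jak1) with 7 sites, ETS and RUNX factors 3 of 12 (Ets1, Fli1 and Runx1) with 4, and the PI3K and Foxo list 2 of 17 (Pik3r1 and Inpp4b) with 6. Migration and cytoskeleton genes had 5 of 26 (among them Ssh2, Arhgap15, Arhgef18 and Rapgef6) with 11 sites, some of which the naive and resting list also counts. No B cell (11), myeloid (10) or CD8 T and NK cell (11) marker gene held a cTreg-specific site, and none held an eTreg-specific one. Of common sites these marker genes held 1, in the CD8 T and NK cell list. The lists that did hold cTreg-specific sites were not particular to them. The eTreg-specific sites lay in 6 T cell receptor signalling genes (13 sites), 4 cytokine signalling genes (7) and 3 ETS and RUNX genes (4). They also lay in 3 PI3K and Foxo genes (5), 8 migration and cytoskeleton genes (15) and 3 core Treg genes (4).

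Most host genes were also marked by other classes of site. Common sites lay in 152 of the 297 genes (51.2%) and eTreg-specific sites in 41 (13.8%), with 32 genes (10.8%) holding all 3 classes and 136 (45.8%) no other class. Foxp1, a forkhead factor that keeps naive T cells quiescent, held 7 common and 2 eTreg-specific sites beside its 12. Satb1, a chromatin organiser of thymocytes and T cells, held none of either class. Among genes that define Treg cells, Foxp3 itself held 1 common site, Ikzf4 (Eos) 1 common site, Ikzf2 (Helios) 4 common and 2 eTreg-specific sites, Ctla4 1 eTreg-specific site, and Il2ra 4 common sites and 1 cTreg-specific one.

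The deposited value is a normalised read count, in which 1 read at these sites was worth 0.516 to 2.16 depending on the library. Recovered reads in the 413 sites were 8963 and 17865 in R397W Foxp3 libraries, 19386 and 18626 in WT Foxp3 libraries, 7535 and 13306 in R397W IgG libraries, and 16251 and 13443 in WT IgG libraries. Totals over all 5521 sites ranged from 111274 to 394196 and are not library depths. The replicate 2 libraries stood apart from the replicate 1 libraries in every group. Reads were present at 89.3% and 42.4% of the sites in R397W Foxp3 libraries, 98.5% and 50.8% in WT Foxp3, 84.7% and 33.2% in R397W IgG, and 74.1% and 25.4% in WT IgG, replicate 1 first. The genotype difference in this share was -8.84 percentage points between Foxp3 libraries (exact permutation p = 0.667). Just 34 sites (8.23%) had reads in all 8 libraries, and 35 (8.47%) had none in either R397W Foxp3 library, against 6 (1.45%) in WT Foxp3. Over all 5521 sites these shares were 13.1% and 2.75%. In IgG libraries the order was the opposite, with 50 sites (12.1%) empty in both R397W libraries, against 94 (22.8%) in WT. Over all sites the IgG shares were 16.3% and 24.1%. A listed 0 allows up to 3 reads, a normalised count of 1.55 to 6.48 by library, and covers counting error only. Why so many sites had no reads in replicate 2 was not tested.

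Averaged over the 413 sites, the difference between R397W and WT Foxp3 signal was within the spread between libraries. The mean was 36.6 and 30.7 in R397W Foxp3 libraries, against 39.5 and 23.3 in WT Foxp3 libraries, or 33.6 ± 4.17 against 31.4 ± 11.5 (SD, n = 2 each). On the log2 scale the difference was 0.14 (exact permutation p = 1, two-sided, where 2 against 2 cannot go below 0.33). IgG libraries were close to the Foxp3 ones, at 39.4 and 21.0 in R397W IgG and 33.7 and 20.9 in WT IgG. The library factors came from the 58 cTreg-specific sites with reads in all 8 libraries, IgG included. They remove a gain or loss shared by all sites of a library, so these means and their ratios cannot show one. The Foxp3 mean over the IgG mean of the same number was 0.927 and 1.46 in R397W cells, against 1.17 and 1.11 in WT cells. The log2 difference between the genotypes in that ratio was 0.028 (exact permutation p = 1). It was -0.046 when the mean of each antibody's libraries was taken before the ratio.

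**Figure D2:**
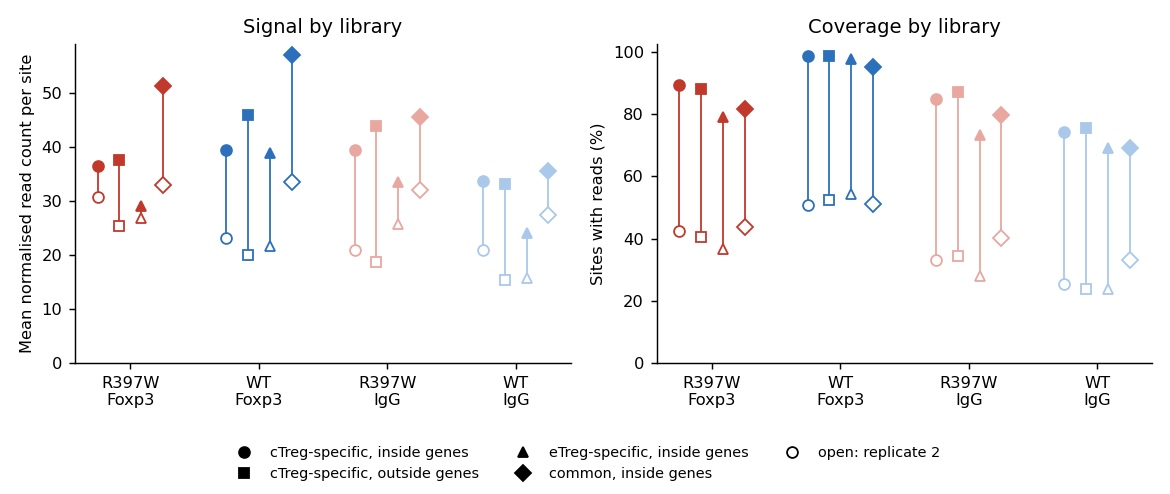
Mean normalised read count per site (left) and share of sites with reads (right, percent) in each library of the 4 groups, with replicate 1 filled and replicate 2 open. Circles are the 413 cTreg-specific sites inside genes, squares the 314 outside, triangles eTreg-specific and diamonds common sites inside genes. For the circles, reads were present at 42.4% of sites in R397W Foxp3 replicate 2, against 50.8% in WT Foxp3 replicate 2, and every replicate 2 value lies below its replicate 1 value.

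Against other sites of the same libraries the genotypes compared differently by the set used as denominator, and every library factor cancels in these ratios of recovered reads. The log2 ratio of reads at the 413 sites to reads at eTreg-specific sites inside genes was 0.27 and -0.038 in R397W Foxp3 libraries, against -0.31 and -0.69 in WT Foxp3 libraries. The groups did not overlap, and the difference was 0.62 (exact permutation p = 0.333, the smallest that 2 against 2 allows). In IgG libraries the same ratio was 0.057 and -0.13 in R397W cells, against -0.34 and -0.21 in WT cells, a difference of 0.24 in the same direction (exact permutation p = 0.333). Earlier results of these data already showed a shift between the classes, so this one is no independent evidence. With cTreg-specific sites outside genes in the denominator, the log2 ratio was 0.36 and 0.66 in R397W Foxp3 libraries, against 0.18 and 0.61 in WT Foxp3 libraries. These groups overlapped, with a difference of 0.12 (exact permutation p = 0.667).

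The 19 genes with 3 or more sites held 83 of the 413. Foxp1 led with 12 sites, and others were Ripor2 (8), Add3 and Inpp4b (5 each), and Ext1, Mfhas1, Pip4k2a, Satb1 and Ubac2 (4 each). Ankrd44, Bcl11b, Ift80, Jak1, Nck2, Rras2, Slc30a7, Thada and Znrf1 had 3 each. Another 52 genes had 2 sites, among them Bach2, Bcl2, Lef1, Ikzf1, Tgfbr2, Prkch, Runx1 and Rapgef6 of the lists, and 226 had 1. Over the 83 sites the Foxp3 mean was 38.6 and 21.2 in R397W libraries, against 46.9 and 23.8 in WT libraries. A fitted value lower in R397W than in WT was found at 55 of them, while 60.4% of all 5521 sites had one, and the median log2 fold change was -0.79 against -0.39 over all sites. That median was 0.53 without R397W Foxp3 replicate 2 and 0.70 without WT Foxp3 replicate 1, so its direction rested on single libraries.

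Foxp1 sites ran from chr6:99023556-99023956 to chr6:99441172-99441572, a span of 417616 bp in a gene of 597405 bp on the minus strand. Neighbouring sites were 1133 to 218046 bp apart. The strongest, chr6:99388939-99389339, lay 123 kb from the nearest start, with 96.05 and 248 in R397W Foxp3 libraries, against 111 and 215 in WT Foxp3 libraries, and 136 and 93.9 in R397W IgG libraries, against 59.2 and 93.1 in WT IgG libraries. It carried 37.7% of the Foxp3 signal of the 12 sites, and its genotype groups overlapped. The site over the start shown above, chr6:99266341-99266741, had 21.9 and 0.709 in R397W Foxp3 libraries, against 42.9 and 73.2 in WT Foxp3 libraries, and 36.7 and 0.652 in R397W IgG libraries, against 30.01 and 0 in WT IgG libraries. Both R397W Foxp3 values there were below both WT Foxp3 values, with a log2 fold change of -3.19 (SE 2.29) and a limma adjusted p of 1. Averaged over the 12 sites, Foxp1 had 27.8 and 42.96 in R397W Foxp3 libraries, against 38.4 and 39.1 in WT Foxp3 libraries, with 43.05 and 15.2 in R397W IgG, against 27.01 and 7.76 in WT IgG. Its WT Foxp3 means lay above both its WT IgG means, as in 55 of the 297 genes (18.5%) and 4 of the 19. The fitted value of WT Foxp3 was higher than that of WT IgG at 12 of 12 sites (74.3% of all sites had one). In R397W cells the fitted value of Foxp3 was higher than that of IgG at 4 of 12 (51.3% of all sites had one). Between the Foxp3 libraries of the genotypes the fitted value was lower in R397W at 10 of 12 (60.4% of all sites had a lower one). With 1 library left out, these counts were 7 to 12 of 12 for WT Foxp3 over WT IgG (7 without WT Foxp3 replicate 1 and 8 without WT IgG replicate 2), 3 to 9 for R397W Foxp3 over R397W IgG (9 without R397W Foxp3 replicate 2 or R397W IgG replicate 1) and 6 to 8 lower between the genotypes. The difference over the gene was not tested.

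Ripor2 held 3 neighbouring sites and 5 weaker ones farther down the gene. Among the upstream sites, chr13:24604660-24605060 had 85.9 and 88.6 in R397W Foxp3 libraries, against 157 and 125 in WT Foxp3 libraries, and 136 and 92.6 in R397W IgG libraries, against 111 and 48.8 in WT IgG libraries. Both R397W Foxp3 values were below both WT Foxp3 values, and reads were present in all 8 libraries, as at 34 of the 413 sites. The R397W values in turn lay below the same-numbered R397W IgG values, while the WT values lay above those of WT IgG. Another upstream site, chr13:24617748-24618148, had 129.8 and 0 in R397W Foxp3 libraries, against 136 and 47.9 in WT Foxp3 libraries, and these overlapped. The 5 downstream sites did not go above 30.3 in any Foxp3 library. One of them, chr13:24699224-24699624, had 0 and 0 in R397W Foxp3 libraries, against 24.4 and 0 in WT Foxp3 libraries, and 0 and 0 in R397W IgG libraries, against 0 and 0 in WT IgG libraries, so a single WT Foxp3 library carried all its reads.

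Satb1 had 1 strong and 3 weak sites. At the start shown above, chr17:51833024-51833424 had 174 and 65.9 in R397W Foxp3 libraries, against 106 and 251 in WT Foxp3 libraries, and 75.7 and 119 in R397W IgG libraries, against 366 and 135 in WT IgG libraries, and it carried 90.8% of the Foxp3 signal of the gene. Foxp3 groups overlapped, and the highest value of all was in an IgG library. The weak sites lay 4.50, 6.21 and 11.6 kb from a start and had no reads in either replicate 2 Foxp3 library. At chr17:51800210-51800610 the values were 8.43 and 0 in R397W Foxp3 libraries, against 30.3 and 0 in WT Foxp3 libraries. Spg11, whose start window had no forkhead core, was strongly covered at chr2:122118201-122118601, with 177 and 389 in R397W Foxp3 libraries, against 96.8 and 227 in WT Foxp3 libraries, and 159.9 and 352 in R397W IgG libraries, against 279 and 262 in WT IgG libraries. At the start of Themis, which encodes a T cell receptor signalling protein, site chr10:28668160-28668560 had 106 and 107 in R397W Foxp3 libraries, against 42.9 and 35.6 in WT Foxp3 libraries, and 102 and 28.7 in R397W IgG libraries, against 108 and 0 in WT IgG libraries. Both R397W Foxp3 values were above both WT Foxp3 values, and above both R397W IgG values, while WT IgG replicate 1 was higher than all 4 Foxp3 values.

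**Figure D3:**
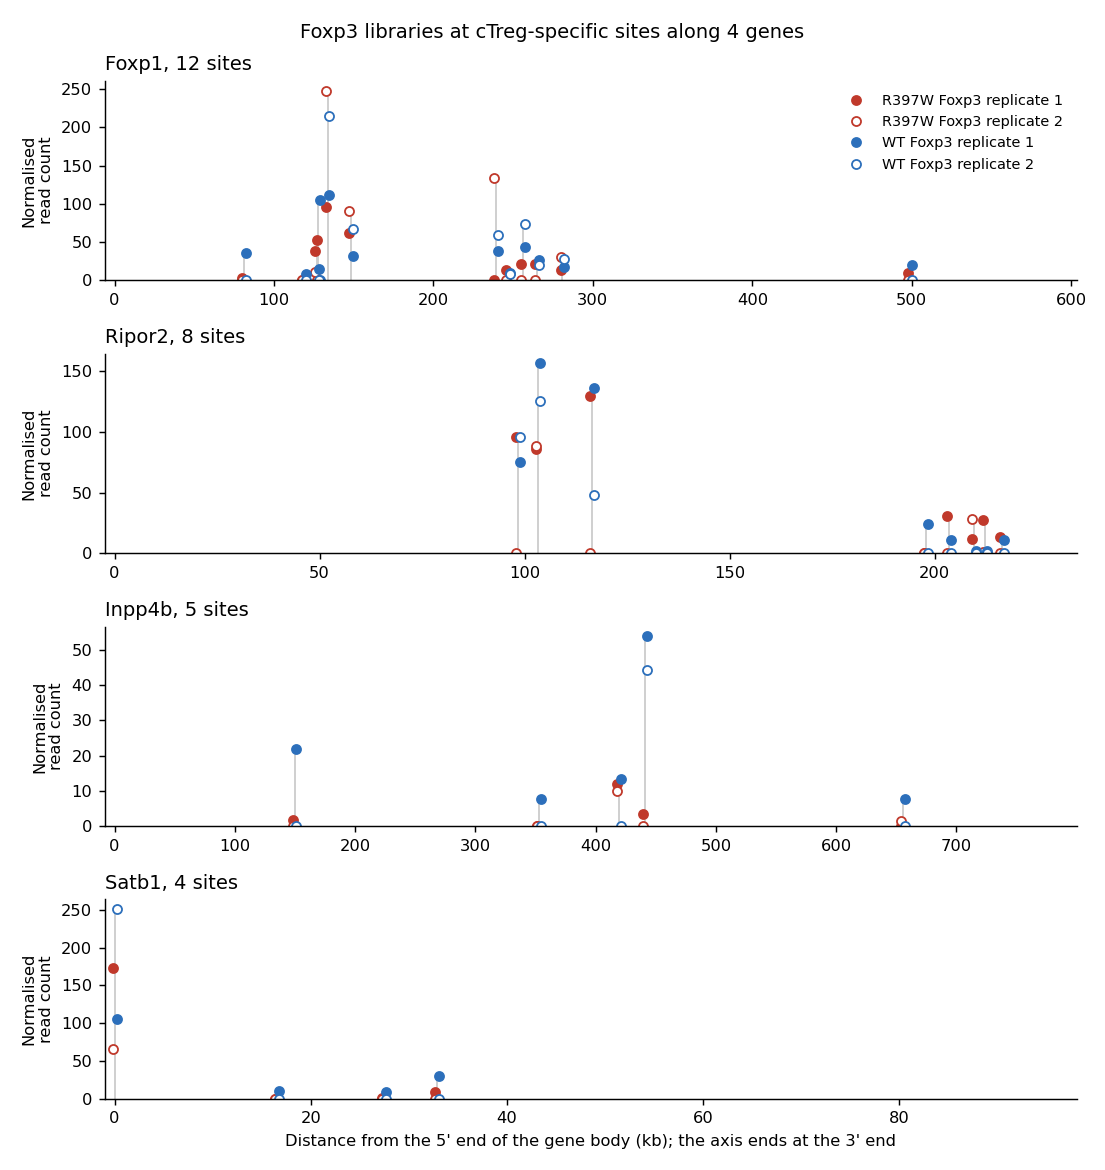
Normalised read counts (y axis) in R397W Foxp3 libraries (red) and WT Foxp3 libraries (blue), replicate 1 filled and replicate 2 open, at each cTreg-specific site along Foxp1, Ripor2, Inpp4b and Satb1 (x axis, kb from the 5′ end of the gene body). Most Foxp1 sites cluster in 2 stretches with the strongest at 96.05 and 248 in R397W libraries and 111 and 215 in WT libraries, and the Satb1 signal sits almost wholly at the 5′ end.

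Inpp4b, a phosphatase that removes the 4-phosphate of phosphoinositides downstream of PI3K, was the one of these 19 genes whose Foxp3 means did not overlap between the genotypes. The mean over its 5 sites was 3.37 and 2.27 in R397W Foxp3 libraries, against 20.9 and 8.87 in WT Foxp3 libraries, or 2.82 ± 0.779 against 14.9 ± 8.49 (SD, n = 2 each). Among all 297 genes, 27 (9.09%) had R397W means above and 35 (11.8%) below both WT means. In 16 of the 297 genes (5.39%), among them Inpp4b, Ankrd44 and Bcl11b of the 19, R397W Foxp3 means lay below both R397W IgG means. Inpp4b IgG means were 10.4 and 7.04 in R397W cells, against 7.89 and 17.6 in WT cells. Most of its WT Foxp3 signal came from chr8:81782834-81783234, with 3.37 and 0 in R397W Foxp3 libraries, against 53.9 and 44.3 in WT Foxp3 libraries, and 36.7 and 0 in R397W IgG libraries, against 16.3 and 87.99 in WT IgG libraries. R397W Foxp3 libraries were nearly empty there while both WT Foxp3 libraries were not, and 1 WT IgG library was higher still. The 4 others had at most 21.9 in any Foxp3 library.

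Jak1, the kinase shared by many cytokine receptors, had 3 sites. At chr4:101192487-101192887 the values were 5.06 and 0 in R397W Foxp3 libraries, against 123 and 22.7 in WT Foxp3 libraries, and 21.6 and 0 in R397W IgG libraries, against 49.7 and 0 in WT IgG libraries. Both R397W Foxp3 values were below both WT Foxp3 values, and replicate 2 IgG libraries had no reads. The other two had 74.1 and 0 in R397W Foxp3 libraries, against 50.5 and 37.6 in WT Foxp3 libraries at chr4:101175248-101175648 and 26.96 and 43.96 in R397W Foxp3 libraries, against 24.4 and 0 in WT Foxp3 libraries at chr4:101217161-101217561. At the first the genotypes overlapped, and at the second both R397W Foxp3 values were above both WT Foxp3 values. Add3, which links spectrin to actin, had 5 sites within 10976 bp. Its strongest, chr19:53185526-53185926, had 126 and 97.9 in R397W Foxp3 libraries, against 83.3 and 103 in WT Foxp3 libraries, and 8.65 and 203 in R397W IgG libraries, against 129 and 169 in WT IgG libraries. Foxp3 and IgG values overlapped there. Ext1, an enzyme of heparan sulphate synthesis, averaged 17.7 and 0 over 4 sites in R397W Foxp3 libraries, against 42.9 and 10.96 in WT Foxp3 libraries, with WT IgG at 1.72 and 0. Its fitted values were lower in R397W than in WT at 4 of 4 sites, and at 2 of 4 without R397W Foxp3 replicate 2 or WT Foxp3 replicate 1. Satb1 (4 of 4), Rras2 and Ankrd44 (3 of 3 each) were also lower throughout, and 60.4% of all sites had a lower fitted value.

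In several genes 1 site carried most of the Foxp3 signal, and in others the sites were even. At Rras2, a small GTPase of the Ras family, chr7:114069049-114069449 had 169 and 73.7 in R397W Foxp3 libraries, against 239.9 and 156 in WT Foxp3 libraries, and 51.9 and 170.2 in R397W IgG libraries, against 97.8 and 0 in WT IgG libraries, which was 77.4% of the signal of its 3 sites. Thada was similar, with 88.5% in chr17:84330600-84331000, where values were 113 and 6.38 in R397W Foxp3 libraries, against 306 and 17.5 in WT Foxp3 libraries, and 75.7 and 0 in R397W IgG libraries, against 62.6 and 16.7 in WT IgG libraries. Replicate 2 was far below replicate 1 there in both Foxp3 groups, and the genotypes overlapped. Bcl11b, a factor of T lineage commitment, had 67.4% in chr12:107927995-107928395, with 118 and 240.4 in R397W Foxp3 libraries, against 79.1 and 103 in WT Foxp3 libraries, and 79.97 and 246 in R397W IgG libraries, against 224 and 0 in WT IgG libraries. Both R397W Foxp3 values were above both WT Foxp3 values, and IgG values of each genotype reached as high as Foxp3 or higher. By contrast the strongest of 4 sites in Pip4k2a, a phosphoinositide kinase, carried 29.1%, and the strongest of 3 in Nck2, an adaptor between receptors and actin, 35.6%. Ankrd44, Ift80, Mfhas1, Slc30a7, Ubac2 and Znrf1 ranged from 39.5% to 86.1% by the same measure.

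Gene means of the remaining multi-site genes overlapped between the genotypes, and replicate 1 was mostly the higher library. The 4 Mfhas1 sites averaged 74.1 and 0 in R397W Foxp3 libraries, against 53.9 and 3.22 in WT Foxp3 libraries. R397W Foxp3 replicate 2 had no reads at any of them. Ubac2, a protein of endoplasmic reticulum degradation, averaged 50.1 and 9.22 in R397W Foxp3 libraries, against 46.3 and 4.64 in WT Foxp3 libraries. For Pip4k2a the 4 sites averaged 26.96 and 34.2 in R397W Foxp3 libraries, against 44.2 and 27.8 in WT Foxp3 libraries. Both Pip4k2a replicate 2 values were above 0, unlike those of Mfhas1 in R397W cells. Ankrd44, a regulatory subunit of protein phosphatase 6, averaged 20.2 and 0 in R397W Foxp3 libraries, against 22.4 and 7.90 in WT Foxp3 libraries. Ift80, of ciliary transport, averaged 16.3 and 4.25 in R397W Foxp3 libraries, against 26.7 and 11.9 in WT Foxp3 libraries. Nck2 averaged 26.4 and 1.65 in R397W Foxp3 libraries, against 39.8 and 0.859 in WT Foxp3 libraries. At Nck2 replicate 2 was nearly empty in Foxp3 libraries and high in IgG, at 12.97 and 49.1 in R397W IgG libraries, against 32.01 and 77.5 in WT IgG libraries. Slc30a7 averaged 64.6 and 22.2 in R397W Foxp3 libraries, against 48.5 and 15.5 in WT Foxp3 libraries. Znrf1, a ubiquitin ligase, averaged 37.6 and 62.9 in R397W Foxp3 libraries, against 48.5 and 11.2 in WT Foxp3 libraries. Znrf1 was higher in replicate 2 for R397W and in replicate 1 for WT.

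**Figure D4:**
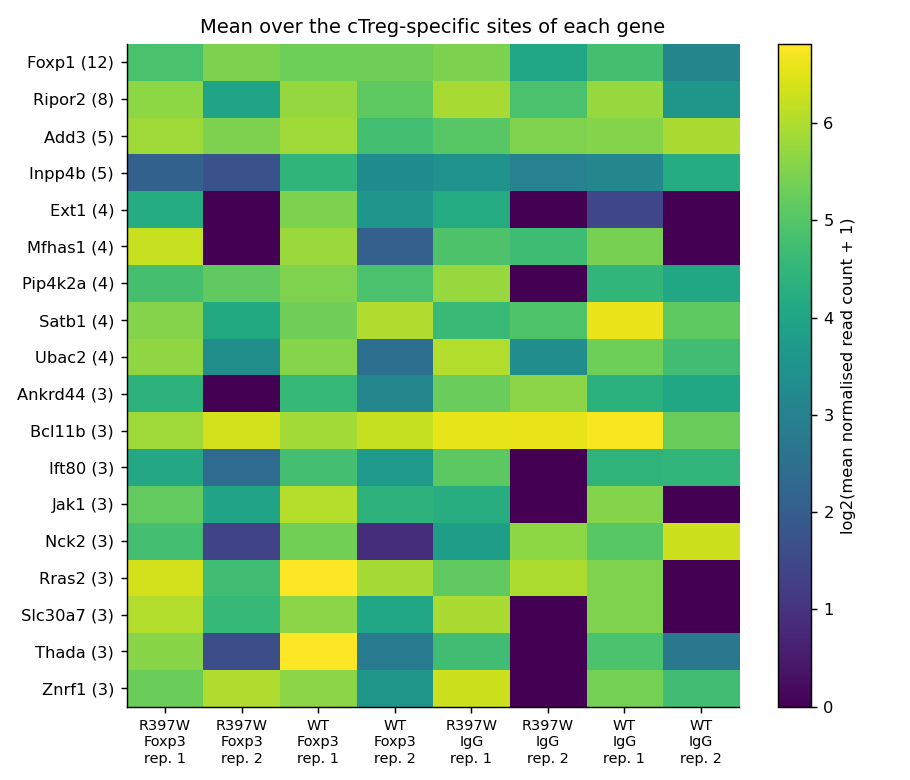
log2(mean normalised read count + 1) over the cTreg-specific sites of 18 genes with 3 or more (rows, site number in brackets) in the 8 libraries (columns). Dark cells are genes whose sites all lacked reads in a library, as for Mfhas1 in R397W Foxp3 replicate 2, and Inpp4b is darker in both R397W Foxp3 columns (3.37 and 2.27) than in the WT Foxp3 ones (20.9 and 8.87).

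Among genes of the resting program with fewer sites, values were modest and the genotypes mostly overlapped. Lef1, a TCF-family factor, had 47.2 and 69.5 in R397W Foxp3 libraries, against 88.4 and 0.516 in WT Foxp3 libraries, and 28.1 and 28.04 in R397W IgG libraries, against 84.04 and 0 in WT IgG libraries at chr3:131153947-131154347, 2.15 kb from a start. Its second site, chr3:131139738-131140138, had 50.6 and 0 in R397W Foxp3 libraries, against 27.8 and 7.22 in WT Foxp3 libraries. Bach2, a repressor that restrains effector differentiation, had 85.9 and 0 in R397W Foxp3 libraries, against 72.4 and 107 in WT Foxp3 libraries at chr4:32387837-32388237 and 62.3 and 0 in R397W Foxp3 libraries, against 15.2 and 25.3 in WT Foxp3 libraries at chr4:32560254-32560654. In both Bach2 sites R397W replicate 2 had no reads while R397W replicate 1 did.

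Ikzf1, which encodes Ikaros, had 30.3 and 25.5 in R397W Foxp3 libraries, against 47.98 and 17.5 in WT Foxp3 libraries at chr11:11719793-11720193 and 26.96 and 0 in R397W Foxp3 libraries, against 37.04 and 0 in WT Foxp3 libraries at chr11:11741519-11741919. The survival factor Bcl2 had 45.5 and 0 in R397W Foxp3 libraries, against 17.7 and 0 in WT Foxp3 libraries, and 0 and 0 in R397W IgG libraries, against 77.2 and 33.4 in WT IgG libraries at chr1:106606881-106607281. WT IgG exceeded WT Foxp3 in both libraries at that site. At the second, chr1:106564954-106565354, values were 38.8 and 0 in R397W Foxp3 libraries, against 10.9 and 0 in WT Foxp3 libraries, and 0 and 0 in R397W IgG libraries, against 0 and 0 in WT IgG libraries, with reads in replicate 1 Foxp3 libraries alone. Ets1, a factor of T cell homeostasis, had 45.5 and 62.4 in R397W Foxp3 libraries, against 44.6 and 0 in WT Foxp3 libraries, and 10.8 and 0 in R397W IgG libraries, against 0 and 0 in WT IgG libraries at chr9:32722955-32723355. Il6st, the gp130 subunit of the interleukin-6 receptor, had 15.2 and 0 in R397W Foxp3 libraries, against 16.8 and 0 in WT Foxp3 libraries, and 0 and 0 in R397W IgG libraries, against 0 and 0 in WT IgG libraries at chr13:112491700-112492100, reads once more being confined to the replicate 1 Foxp3 libraries. Nsg2 had 50.6 and 87.9 in R397W Foxp3 libraries, against 74.1 and 60.8 in WT Foxp3 libraries, and 88.6 and 0 in R397W IgG libraries, against 47.2 and 0 in WT IgG libraries at chr11:32011790-32012190. At Ets1 both R397W Foxp3 values were above both WT Foxp3 values, by little in the nearest pair, and at Il6st and Nsg2 the genotypes overlapped. Rapgef4, an exchange factor for Rap GTPases, had 55.6 and 21.3 in R397W Foxp3 libraries, against 18.5 and 26.3 in WT Foxp3 libraries at chr2:72144814-72145214, and St8sia1, a sialyltransferase of ganglioside synthesis, had 18.5 and 0 in R397W Foxp3 libraries, against 20.2 and 36.6 in WT Foxp3 libraries, and 0 and 41.7 in R397W IgG libraries, against 0 and 111 in WT IgG libraries at chr6:142887393-142887793. The genotypes overlapped at Rapgef4, and at St8sia1 both R397W Foxp3 values were below both WT Foxp3 values. Over the 35 sites of this list the fitted value was lower in R397W at 25 and higher at 10 (60.4% of all sites had a lower one). The median log2 fold change was -0.49, against -0.26 over the 413. The list median was 0.75 without R397W Foxp3 replicate 2 and 0.17 without WT Foxp3 replicate 1.

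Sites in genes of T cell receptor and cytokine signalling gave list means that overlapped between the genotypes. The 7 sites of T cell receptor signalling averaged 61.1 and 64.02 in R397W Foxp3 libraries, against 63.3 and 38.2 in WT Foxp3 libraries, and 61.1 and 8.94 in R397W IgG, against 65.7 and 41.4 in WT IgG. In it Prkch, protein kinase C eta, had 33.7 and 58.9 in R397W Foxp3 libraries, against 26.1 and 2.06 in WT Foxp3 libraries at chr12:73679381-73679781 and 16.9 and 0 in R397W Foxp3 libraries, against 37.9 and 34.03 in WT Foxp3 libraries at chr12:73687036-73687436. The first was the better covered in R397W replicate 2 and the second in WT replicate 2. The 7 sites of cytokine signalling averaged 25.5 and 48.01 in R397W Foxp3 libraries, against 45.3 and 33.4 in WT Foxp3 libraries. Tgfbr2, the type II receptor for TGF-beta, had 1.69 and 31.2 in R397W Foxp3 libraries, against 37.04 and 38.2 in WT Foxp3 libraries, and 0 and 79.6 in R397W IgG libraries, against 28.3 and 0 in WT IgG libraries at chr9:116114317-116114717, where both R397W Foxp3 values were below both WT Foxp3 values. At its other site, chr9:116145189-116145589, the order was the opposite, with 32.02 and 117 in R397W Foxp3 libraries, against 27.8 and 0 in WT Foxp3 libraries, and 82.1 and 63.2 in R397W IgG libraries, against 0 and 37.9 in WT IgG libraries. Runx1, a partner of Foxp3 in T cells, had 52.2 and 181 in R397W Foxp3 libraries, against 58.1 and 8.76 in WT Foxp3 libraries, and 58.4 and 88.7 in R397W IgG libraries, against 99.5 and 31.5 in WT IgG libraries at chr16:92821710-92822110, 4.16 kb from a start. A single R397W Foxp3 library was high there. Its second site, chr16:92641021-92641421, had 26.96 and 0 in R397W Foxp3 libraries, against 19.4 and 15.98 in WT Foxp3 libraries. Rapgef6, an exchange factor for Rap GTPases, had 21.9 and 0 in R397W Foxp3 libraries, against 10.1 and 0 in WT Foxp3 libraries at chr11:54533847-54534247 and 0 and 44.7 in R397W Foxp3 libraries, against 0 and 0 in WT Foxp3 libraries at chr11:54567922-54568322, where R397W replicate 2 was the single Foxp3 library with reads. The 6 sites of the PI3K and Foxo list, 5 of them in Inpp4b, had lower means, at 2.81 and 1.89 in R397W Foxp3 libraries, against 19.2 and 7.82 in WT Foxp3 libraries, and there both R397W values were below both WT values.

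At the sites in core Treg genes the genotypes overlapped. Il2ra had 37.1 and 22.7 in R397W Foxp3 libraries, against 26.9 and 0.516 in WT Foxp3 libraries, and 34.6 and 47.6 in R397W IgG libraries, against 17.2 and 0 in WT IgG libraries at chr2:11662057-11662457. Nrp1 had 33.7 and 0 in R397W Foxp3 libraries, against 10.9 and 71.1 in WT Foxp3 libraries, and 45.4 and 0 in R397W IgG libraries, against 0 and 0 in WT IgG libraries at chr8:128473817-128474217. WT IgG lacked reads at Nrp1 in both libraries, so the WT Foxp3 mean was at least 18.2-fold higher than a floor of 3 reads per library. R397W IgG did have reads there in 1 library.

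The 10 sites with the highest Foxp3 mean had strong IgG signal as well. Over them the mean of the 4 Foxp3 libraries ran from 149 to 253, and that of the 4 IgG libraries from 79.96 to 303. They lay in Foxk1, Rasa3, Spg11, Dip2b, Susd1, Foxp1, Itgb3, Rras2, Impg1 and Satb1. Foxk1, another forkhead factor, led with 180.3 and 331 in R397W Foxp3 libraries, against 125 and 376 in WT Foxp3 libraries, and 166 and 104 in R397W IgG libraries, against 198 and 316 in WT IgG libraries at chr5:142440445-142440845. Rasa3, a GTPase-activating protein for Ras and Rap, had 158 and 332 in R397W Foxp3 libraries, against 209 and 302 in WT Foxp3 libraries, and 110.2 and 539 in R397W IgG libraries, against 282 and 280.02 in WT IgG libraries at chr8:13600094-13600494. Neither shows a Foxp3 value clear of IgG in both genotypes. Dip2b had 289.8 and 144 in R397W Foxp3 libraries, against 190.2 and 112 in WT Foxp3 libraries, and 99.4 and 112 in R397W IgG libraries, against 65.2 and 149.6 in WT IgG libraries at chr15:100181891-100182291, where replicate 1 of R397W Foxp3 and replicate 1 of WT Foxp3 exceeded every IgG value. Susd1 had 128 and 99.98 in R397W Foxp3 libraries, against 165 and 342 in WT Foxp3 libraries, and 223 and 212 in R397W IgG libraries, against 218 and 124 in WT IgG libraries at chr4:59331679-59332079, and Impg1 had 75.8 and 391 in R397W Foxp3 libraries, against 53.9 and 78.4 in WT Foxp3 libraries, and 132 and 29.99 in R397W IgG libraries, against 40.3 and 119 in WT IgG libraries at chr9:80318022-80318422. For Impg1 a single R397W Foxp3 library was far above the other 7 libraries.

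Between R397W and WT Foxp3 libraries, no site was called at an adjusted p under 0.05 (0 of 413, and 0% of all 5521 sites, limma with Benjamini-Hochberg adjustment over 5521 sites). At an unadjusted p under 0.05 there were 0 higher (0.0543% of all sites) and 1 lower (0.272%) with limma, 3 (0.217%) and 1 (0.507%) with edgeR, and 2 (0.257%) and 2 (0.843%) with DESeq2, and the adjusted calls of edgeR and DESeq2 were 0 as well. The median log2 fold change, on log2(normalised read count + 1), was -0.26 over the 413 sites and -0.39 over all 5521. Fitted values were lower in R397W at 238 sites (57.6%), with 60.4% over all. This direction turned with single libraries, as the median over the 413 sites was 1.06 without WT Foxp3 replicate 1 (137 sites lower and 247 higher) and 0.77 without R397W Foxp3 replicate 2, against -1.79 with R397W Foxp3 replicate 1 left out and -1.70 with WT Foxp3 replicate 2 left out. Both R397W Foxp3 libraries lay above both WT Foxp3 libraries at 33 sites (7.99%), against 6.43% of all sites. Both lay below at 46 (11.1%), against 12.6% of all sites. These shares are near those of all sites. Both R397W Foxp3 libraries were empty at 35 of the 413 sites, where a fit without 1 WT library has no spread between replicates. The call count rested on 1 library, since 34 sites (8.23%) were called without WT Foxp3 replicate 2, a smaller share than the 11.6% of all sites called in that fit. All 34 were lower in R397W and had no reads in either R397W Foxp3 library, and 23 of them had none in either WT IgG library.

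**Figure D5:**
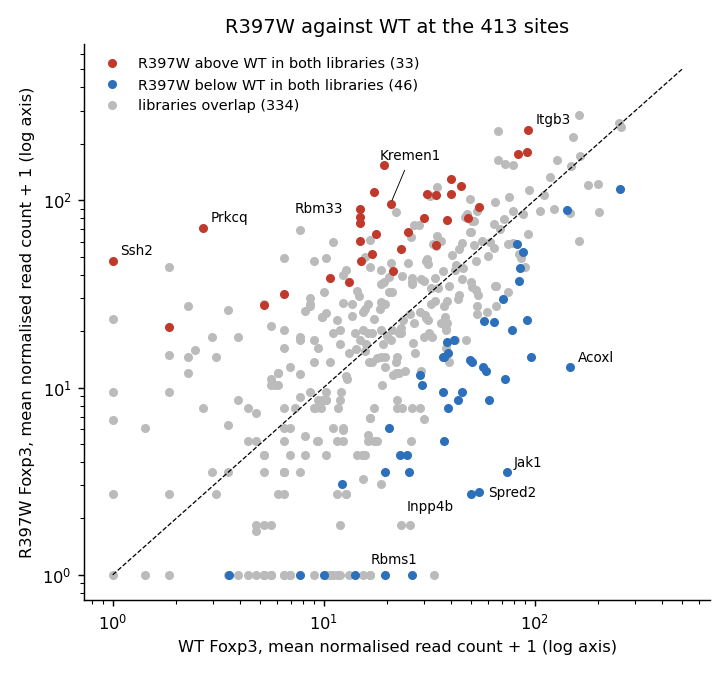
Mean normalised read count + 1 of the 2 R397W Foxp3 libraries (y axis) against that of the 2 WT Foxp3 libraries (x axis), both on log axes, for the 413 sites. Red points (33) had both R397W libraries above both WT libraries, blue points (46) below and grey points overlapped; the named sites have the largest fold changes among the red and blue, and the dashed line marks equal values.

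Among sites whose libraries did not overlap, the largest fold changes towards R397W were at Ssh2, Prkcq, Itgb3, Rbm33 and Kremen1. Ssh2, a phosphatase that activates cofilin, had 42.1 and 51.1 in R397W Foxp3 libraries, against 0 and 0 in WT Foxp3 libraries, and 58.4 and 42.4 in R397W IgG libraries, against 10.3 and 0 in WT IgG libraries at chr11:77371170-77371570. WT Foxp3 lacked reads there, so the R397W Foxp3 mean was at least 22.9-fold higher than a floor of 3 reads per library, and R397W IgG was equally high. Prkcq, the protein kinase C theta of T cell receptor signalling, had 30.3 and 111 in R397W Foxp3 libraries, against 3.37 and 0 in WT Foxp3 libraries, and 21.6 and 0 in R397W IgG libraries, against 0.858 and 0 in WT IgG libraries at chr2:11254355-11254755, a log2 fold change of 4.82 (SE 3.06) with a limma adjusted p of 1. In this case R397W Foxp3 also exceeded every IgG library. Itgb3, the integrin beta-3 chain, had 219 and 255 in R397W Foxp3 libraries, against 185 and 0 in WT Foxp3 libraries, and 106 and 0 in R397W IgG libraries, against 158 and 197 in WT IgG libraries at chr11:104661017-104661417. Its fold change rested on the single empty WT Foxp3 library, and without that library it fell to 0.35 on the log2 scale. Rbm33, an RNA-binding protein, had 82.6 and 95.01 in R397W Foxp3 libraries, against 27.8 and 0 in WT Foxp3 libraries, and 36.7 and 0 in R397W IgG libraries, against 67.7 and 0 in WT IgG libraries at chr5:28402687-28403087. Kremen1, a receptor for Dickkopf proteins, had 87.6 and 102 in R397W Foxp3 libraries, against 39.6 and 0 in WT Foxp3 libraries, and 25.9 and 69.1 in R397W IgG libraries, against 19.7 and 0 in WT IgG libraries at chr11:5215796-5216196. WT Foxp3 replicate 2 was 0 at all 5 of these sites, and without it the log2 fold change was 1.24 at Kremen1 and 1.64 at Rbm33, against 3.91 and 4.06 with all libraries.

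The largest fold changes the other way were at Acoxl, Spred2, Inpp4b, Jak1 and Rbms1. Acoxl, related to acyl-CoA oxidases, had 23.6 and 0 in R397W Foxp3 libraries, against 139 and 155 in WT Foxp3 libraries, and 106 and 68.5 in R397W IgG libraries, against 0.858 and 57.2 in WT IgG libraries at chr2:127927734-127928134. The R397W Foxp3 mean was 11.8 ± 16.7, against 147 ± 11.2 in WT (SD, n = 2 each), and the log2 fold change was -4.90 (SE 2.00) with a limma adjusted p of 1. The fold change was -2.59 without R397W Foxp3 replicate 2 and -7.21 without R397W Foxp3 replicate 1. R397W IgG was higher than R397W Foxp3 at this site in both libraries. Spred2, an inhibitor of Ras and ERK signalling, had 0 and 3.55 in R397W Foxp3 libraries, against 69.9 and 37.1 in WT Foxp3 libraries, and 47.6 and 18.9 in R397W IgG libraries, against 78.04 and 83.5 in WT IgG libraries at chr11:19963779-19964179. IgG libraries of WT cells were there above WT Foxp3. Rbms1, an RNA-binding protein, had 0 and 0 in R397W Foxp3 libraries, against 26.9 and 10.3 in WT Foxp3 libraries, and 0 and 22.2 in R397W IgG libraries, against 0 and 0.642 in WT IgG libraries at chr2:60904123-60904523. R397W Foxp3 lacked reads, and the WT Foxp3 mean was at least 5.19-fold higher than a floor of 3 reads per library. Without WT Foxp3 replicate 2 the log2 fold change at Rbms1 was -4.80. That fit had no spread between replicates at this site, since both R397W Foxp3 values were 0, so nothing is read from its p-value. The Inpp4b and Jak1 sites are given with their genes.

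Foxp3 libraries were compared with IgG libraries within each genotype to see how many sites stood above background. On the deposited scale, a gain of Foxp3 over IgG shared by all sites is removed, so the counts cannot show it. In R397W cells 0 of 413 sites were called (0% of all sites), the lowest adjusted p being 1 with limma. Unadjusted, 2 were higher (0.906% of all sites) and 0 lower (0.561%) with limma, 1 (0.254%) and 0 (0.109%) with edgeR, and 5 (1.07%) and 0 (0.398%) with DESeq2. R397W Foxp3 lay above R397W IgG in both libraries at 46 sites (11.1%), against 10.4% of all sites, and below at 20 (4.84%), against 7.84%. In WT cells likewise 0 of 413 were called (0.0725% of all sites), the lowest adjusted p being 0.749 with limma. Unadjusted, 4 were higher (2.41% of all sites) and 1 lower (0.163%) with limma, 0 (0.598%) and 0 (0.163%) with edgeR, and 13 (3.55%) and 0 (0.0181%) with DESeq2. With the titled cell sample as a replicate block, unadjusted counts were 6 higher (2.26% of all sites) and 2 lower (1.18%) in R397W cells and 25 higher (6.23%) and 1 lower (0.290%) in WT cells, with 0 adjusted calls among the 413 sites in both. WT Foxp3 lay above WT IgG in both libraries at 71 sites (17.2%), against 19.5% of all sites, and below at 23 (5.57%), against 4.84%. Median log2 fold changes were 0.13 in R397W cells and 1.10 in WT cells, with 0.052 and 1.27 over all sites. With 1 library left out, the R397W median ran from -1.21 (without R397W Foxp3 replicate 1) to 1.89 (without R397W IgG replicate 1), and was -0.997 without R397W IgG replicate 2. The WT median ran from -0.21 (without WT IgG replicate 2) to 2.41 (without WT Foxp3 replicate 2), and was 0 without WT Foxp3 replicate 1.

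WT calls depended on single libraries. There were 13 (3.15%, against 3.42% of all sites) without WT Foxp3 replicate 2, 1 (Nup160, against 0.616% of all sites) without WT Foxp3 replicate 1 and 1 (Rras2, against 0.525% of all sites) without WT IgG replicate 1, all higher in Foxp3. The 13 had no reads in either WT IgG library, and 12 of them none in either R397W Foxp3 library. By replicate number, R397W Foxp3 exceeded R397W IgG at 193 sites (46.7%) in replicate 1 and 137 (33.2%) in replicate 2, with 48.9% and 31.3% of all sites. WT Foxp3 exceeded WT IgG at 268 (64.9%) and 167 (40.4%), with 72.7% and 41.9% of all sites. Foxp3 was below IgG at 199 sites (48.2%) in replicate 1 and 92 (22.3%) in replicate 2 of R397W cells. In WT cells it was below at 142 (34.4%) and 69 (16.7%). The remaining sites had equal values in the pair, so in replicate 2 Foxp3 was more often above IgG than below it.

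Among sites whose R397W Foxp3 and R397W IgG libraries did not overlap, the largest fold changes over IgG were in Pitpnc1, Add3, Tceal3, Adgrl2 and Cox10. Pitpnc1, a phosphatidylinositol transfer protein, had 84.3 and 227 in R397W Foxp3 libraries, against 15.1 and 0 in R397W IgG libraries, and 86.7 and 56.7 in WT Foxp3, against 19.7 and 0 in WT IgG, at chr11:107443670-107444070. It was thus above IgG in both genotypes. The Add3 site chr19:53195189-53195589 had 28.6 and 117 in R397W Foxp3 libraries, against 2.16 and 0 in R397W IgG libraries. Adgrl2, Tceal3 and Cox10 had no reads in R397W IgG, and their R397W Foxp3 means were at least 11.4-, 11.6- and 6.48-fold higher than a floor of 3 reads per library. Lowest against IgG were sites in Bcl11b, Rbms1, Acoxl, Prkce and Ankrd44. At Bcl11b chr12:107996158-107996558 the values were 6.74 and 0 in R397W Foxp3 libraries, against 104 and 37.2 in R397W IgG libraries. Prkce had 20.2 and 0 in R397W Foxp3, against 56.2 and 89.3 in R397W IgG, and the second Rbms1 site 8.43 and 0, against 25.9 and 128. The named Ankrd44 site, chr1:54882852-54883252, had 55.6 and 0 in R397W Foxp3, against 86.5 and 146 in R397W IgG.

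In WT cells the largest fold changes over IgG by the same rule were Bcl2l1, Poc1b, Slc30a7, Nrp1 and Cdk19. Bcl2l1, which encodes the survival factor Bcl-xL, had 149.8 and 40.7 in WT Foxp3 libraries, against 0 and 0 in WT IgG libraries, and 26.96 and 0 in R397W Foxp3, against 21.6 and 0 in R397W IgG, at chr2:152775398-152775798. The WT Foxp3 mean was at least 42.4-fold higher than a floor of 3 reads per library. Poc1b, a centriole protein, had 15.2 and 57.2 in WT Foxp3, against 0 and 0 in WT IgG, and Slc30a7, a zinc transporter, 53.9 and 15.98, against 0 and 0, at chr3:115972232-115972632. Cdk19, a kinase of the Mediator complex, had 30.3 and 43.3 in WT Foxp3, against 0 and 0.642 in WT IgG. R397W IgG replicate 1 had reads at each of these 5 sites, from 21.6 to 88.6. Below IgG were Ripor2, Pcca, Bcl2, Pakap and Atn1. At Ripor2 chr13:24713586-24713986 the values were 1.68 and 0 in WT Foxp3, against 24.01 and 39.8 in WT IgG, and at Pakap 32.8 and 0, against 60.9 and 49.5. Atn1 had 27.8 and 0 in WT Foxp3, against 30.9 and 64.9 in WT IgG.

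IgG libraries of the 2 genotypes gave unlike values at single sites, without a call (0 of 413, 0.0362% of all sites, limma, lowest adjusted p 1). Unadjusted, 3 were higher (1.52% of all sites) and 4 lower (0.725%) in R397W IgG with limma, 0 (0.344%) and 2 (0.471%) with edgeR, and 16 (3.17%) and 7 (0.779%) with DESeq2. R397W IgG lay above WT IgG in both libraries at 35 sites (8.47%), against 11.3% of all sites, and below at 19 (4.60%), against 5.51%. Higher in R397W IgG were Bcl11b, Ptpn12, Arhgef10l, Ccdc162 and Dph5, and the Bcl11b site chr12:107996158-107996558 had 104 and 37.2, against 0 and 0 in WT IgG. Ptpn12, a tyrosine phosphatase, had 47.6 and 45.6 in R397W IgG, against 0 and 0 in WT IgG, Arhgef10l 34.6 and 59.3, against 0 and 0, and Dph5, an enzyme of diphthamide synthesis, 138 and 99.1, against 11.1 and 0. Lower were Bcl2, Akap13, Ripor2, Itgb3 and Fli1, of which Itgb3 had 106 and 0 in R397W IgG, against 158 and 197 in WT IgG.

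The genotype difference in Foxp3 over IgG, R397W minus WT, gave no call either (0 of 413, 0% of all sites, lowest limma adjusted p 0.841). Unadjusted, 2 were higher (0.272% of all sites) and 3 lower (1.38%) with limma, 2 (0.254%) and 0 (0.290%) with edgeR, and 4 (0.290%) and 6 (1.68%) with DESeq2. With the titled cell sample as a replicate block they were 4 (0.507%) and 12 (3.46%), with no adjusted call. The median over the 413 sites was -0.90 on the log2 scale, against -1.02 over all sites, and 263 sites (63.7%) had a negative value, against 65.7%. The median turned positive in 4 of the 8 fits with 1 library left out, at 0.30 without WT Foxp3 replicate 1, 0.23 without R397W Foxp3 replicate 2, 0.50 without WT IgG replicate 2 and 0.42 without R397W IgG replicate 1. Same-numbered differences of R397W lay above both of WT at 37 sites (8.96%), against 7.06% of all sites, and below both at 73 (17.7%), against 20.8%. Without WT Foxp3 replicate 2 there were 11 calls (2.66%, against 3.30% of all sites), all lower and all at sites with no reads in either R397W Foxp3 or either WT IgG library. Lowest were Acoxl, Bcl11b, Enthd1, Ms4a4a and Selp. Selp, which encodes P-selectin, had 0 and 0 in R397W Foxp3 libraries, against 44.6 and 5.67 in WT Foxp3 libraries, and 0 and 18.9 in R397W IgG libraries, against 0 and 0 in WT IgG libraries at chr1:164136573-164136973. Ms4a4a had 6.74 and 0 in R397W Foxp3 libraries, against 29.5 and 18.04 in WT Foxp3 libraries, and 86.5 and 0 in R397W IgG libraries, against 0 and 0 in WT IgG libraries at chr19:11387026-11387426. Highest were Itgb3, Tet1, Ripor2, Pcca and Bcl2. At Tet1, an enzyme that oxidises 5-methylcytosine, the values were 18.5 and 34.7 in R397W Foxp3 libraries, against 8.42 and 0 in WT Foxp3 libraries, and 0 and 0 in R397W IgG libraries, against 0 and 259 in WT IgG libraries at chr10:62859021-62859421, so 1 WT IgG library set the difference.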

How the data were processed

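Foxp3 and IgG CUT&Tag libraries of R397W and WT Treg cells were analysed from 3 deposited site tables (common, cTreg-specific and eTreg-specific), each with 8 columns of normalised signal. Per the submitters' processing notes, the tools were DiffBind 3.12.0 and Bowtie2 2.5.2, with the builds dm6 and mm10, and no roles are given. The file names of the deposited signal describe it as normalised to a spike-in. All 28067 values above 0 that were tested were whole multiples of 1 value per library and table (100.0%, tolerance 0.01), and that value was the inverse median-of-ratios size factor of the table's own sites (58 sites with reads in all 8 libraries for the cTreg-specific table). A gain or loss shared by all sites of a library is therefore removed, and tables are on separate scales. How sites were called, and duplicate removal, are not given in the sources used here.

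Sites were assigned to protein-coding RefSeq gene bodies (GRCm38.p6) by their centre. A two-sided limma fit (version 3.58.1, empirical Bayes with a trend, R 4.3.3) was made to log2(normalised read count + 1) of all 5521 sites without a filter, a site being called at a Benjamini-Hochberg adjusted p under 0.05. The R397W against WT Foxp3 fit used the 4 Foxp3 libraries and the others all 8. Recovered reads were also tested with edgeR 4.0.16 and DESeq2 1.42.0, with the deposited factors. Only the R397W against WT Foxp3 fit of limma, edgeR and DESeq2 was run on simulated counts. There both replicates of a group had equal expected values at a site, without the many empty replicate 2 sites of these data. Single values per library had exact permutation tests. Alternatives were pseudocounts of 0.5 and 5, equal totals, removal of the lowest 25% of sites, sites wholly inside genes, removal of the heaviest 1%, a replicate block (by number, or by the cell sample that the titles name for both antibodies), and each library left out. The block by titled cell sample, and leaving out libraries for the medians and direction counts of gene groups, were chosen after seeing the data. Sites named are those in genes with 3 or more (or 2, for listed genes), the 10 highest over the 4 Foxp3 libraries, the 5 largest changes each way among sites whose libraries did not overlap, and all in naive, resting or core Treg genes. Themis (for its start window) and Nup160 (a call without 1 library) are named outside this rule, after values were seen. The sites of 1 gene are not reported here. Members, the 11 gene lists and tests were chosen with earlier results of these data known. Ratios of recovered reads cancel the library factors. Python 3.11.15 was used for the rest.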

Additional observations from a re-analysis of the deposited data

Results flagged for a closer look

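At 17 of the 413 sites the log2 difference between same-numbered Foxp3 and IgG libraries had one sign in both R397W pairs and the opposite sign in both WT pairs, and 9 of these are described here. WT was positive and R397W negative at 8 of the 17 (1.94% of the sites, against 4.31% of all 5521), and WT negative with R397W positive at 9 (2.18%, against 1.47%). None was called in the limma fit of the difference, which is the test of it. With a positive WT side, Acoxl had -2.12 and -6.12 in R397W cells, against 6.23 and 1.42 in WT cells, a difference of -7.95. Enthd1 had -1.21 and -5.18 in R397W cells, against 1.05 and 5.90 in WT cells, a difference of -6.67. Ccdc162 had -2.23 and -0.34 in R397W cells, against 3.94 and 3.75 in WT cells, a difference of -5.13. At Ripor2 chr13:24604660-24605060, where reads were present in all 8 libraries, the values were -0.66 and -0.062 in R397W cells, against 0.50 and 1.34 in WT cells, a difference of -1.28. With a negative WT side, the second Ripor2 site, chr13:24713586-24713986, had 4.81 and 0.77 in R397W cells, against -3.22 and -5.35 in WT cells, a difference of 7.08. Pcca, a subunit of propionyl-CoA carboxylase, had 6.17 and 0.098 in R397W cells, against -1.43 and -5.85 in WT cells, a difference of 6.77. Akap13 had 1.62 and 6.52 in R397W cells, against -0.073 and -4.14 in WT cells, a difference of 6.18. Fli1, an ETS factor, had 0.81 and 6.21 in R397W cells, against -0.66 and -0.19 in WT cells, a difference of 3.94. Spg11 had 0.14 and 0.14 in R397W cells, against -1.52 and -0.20 in WT cells, a difference of 1.00. All these values are log2(normalised read count + 1) of Foxp3 minus IgG.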

How the results depend on the processing

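With each library left out in turn, the log2 R397W over WT Foxp3 mean ranged from -0.24 to 0.53 (0.14 with all), turning negative without WT Foxp3 replicate 2. The log2 difference in Foxp3 over IgG ranged from -0.30 to 0.36 (0.028 with all), negative without either genotype's replicate 2 (-0.30 and -0.0092). The ratio to cTreg-specific sites outside genes ranged from -0.096 to 0.33 (0.12 with all), negative without R397W Foxp3 replicate 2 (-0.038) or WT Foxp3 replicate 1 (-0.096). The ratio to eTreg-specific sites inside genes ranged from 0.43 to 0.81 (0.62 with all). Its groups did not overlap, so leaving out 1 library could not turn its sign. The R397W minus WT share of sites with reads ranged from -32.7 to 15.01 percentage points (-8.84 with all), at 14.6 without R397W Foxp3 replicate 2 and 15.01 without WT Foxp3 replicate 1. Calls between genotypes ranged from 0 to 34 (0 to 643 of all 5521 sites), WT Foxp3 over IgG from 0 to 13 (0 to 189) and in the difference of differences from 0 to 11 (0 to 182), with the lone library of a group assumed to vary like the other groups. The cause of these turns was not tested.

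Within a genotype the titles give the Foxp3 and IgG libraries of one number the name of the same cell sample, while nothing states what a number shares between genotypes. Across the 413 sites the deviations of same-numbered libraries correlated at -0.037 to 0.17. The fits with a replicate block by number gave 0 calls among the 413 sites in each of the 5 comparisons. The block by titled cell sample was fitted only for Foxp3 over IgG in each genotype and for their difference, with 0 calls. The mean of same-numbered differences gave 0.14, 0.12, 0.62 and -8.84 for the R397W against WT results above. Without a replicate block the difference in Foxp3 over IgG was -0.046. Pseudocounts of 0.5 and 5, scaling to equal totals, removal of the lowest 25% of sites, edgeR, DESeq2 and the rule that the whole site lie inside the gene left each count of calls at 0. Removal of the heaviest 1% of sites kept the direction of the 4 mean and ratio results. The 10 sites named between the genotypes were picked because their libraries did not overlap. Leaving out a library, a replicate block or another pseudocount could therefore not turn their sign, which also held with equal totals. Over these runs the fold changes ran from -7.21 to 7.89. They shrank most at Itgb3 (0.35), Kremen1 (1.24) and Rbm33 (1.64), all without WT Foxp3 replicate 2. Depth limits weak sites, as 3 reads are worth up to 6.48 (in R397W IgG replicate 1). In each replicate 2 library 203 to 308 of the 413 sites had no reads, although R397W Foxp3 replicate 2 had more reads in these sites than replicate 1 (17865 and 238 empty sites, against 8963 and 44).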
